A study of Mus musculus with 56 samples.

Results

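The samples described here were microglia, the resident macrophages of the brain, sorted from mouse cortex by how strongly they stained with TMRM. TMRM is a dye that gathers in mitochondria in proportion to their membrane potential. There were 18 bulk Smart-seq2 libraries, 10 labelled TMRM high and 8 labelled TMRM low, of 56 samples in the whole series, and they were chosen by their sample titles. Both groups were of the strain given as B6/C57, at postnatal day 9 (P9), with no genotype, treatment or sex named. The labels do not say whether the libraries came from separate mice or from pools, or how many cells each held, so the p-values measure only the spread between these libraries, which may be technical. Xist, expressed from the inactive X of females, and the sum of genes of the Y chromosome were both above 1 FPKM in all 17 libraries that had values for them.

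At this age microglia multiply and clear dying cells and synapses, and a subset takes on a phagocytic state marked by Spp1, Gpnmb, Igf1 and Itgax. Engulfed cargo is broken down in lysosomes, which are acidified by a proton pump, and the lipid it releases is bound, exported or stored in droplets. Energy for this can come from glycolysis in the cytosol or from the respiratory chain and ATP synthase in mitochondria, whose proton gradient is what TMRM reports. The study sorted on the dye to describe metabolically active microglia.

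The deposited unit was FPKM, fragment counts scaled by transcript length and by library depth. Each library listed between 10134 and 11143 gene symbols above 1 FPKM. From the deposited confidence limits, the libraries rested on about 1240330 (TMRM low 3) to 5154130 (TMRM low 1) fragments. Of 12 microglial marker genes, all were detected in every library, and their summed level was 10426 to 12299 FPKM in TMRM high and 11164 to 12743 in TMRM low (adjusted p = 0.039, exact permutation test). TMRM low 2 and TMRM low 7 stood apart by RNA of the choroid plexus, with 33865 and 6262 FPKM of Ttr, the transthyretin made there.

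Of 10714 genes that averaged 1 FPKM or more over the 18 libraries, 2189 were higher (20.4%) and 1054 were lower (9.84%) in TMRM high at an adjusted p under 0.05 (limma on log2(FPKM + 1), Benjamini-Hochberg over all genes). Of these, 202 and 85 differed at least 2-fold on that scale, which understates the change of genes of low level. All 10 TMRM high libraries lay above all 8 TMRM low libraries for 554 genes (5.17%), and below them for 180 (1.68%). The excess of higher calls depended on scale. The summed FPKM of a library was 436809 to 541234 in TMRM high and 388966 to 498471 in TMRM low (adjusted p = 0.0069, exact permutation test). With each library rescaled to the same sum (TPM), 1113 genes were higher (10.4%) and 2124 lower (19.8%), and with median-ratio scaling 1575 (14.7%) and 1632 (15.2%). The median difference over all genes was 0.06 as deposited, and it moved by -0.16 and -0.08 under these scalings. Under all 3 scales 1113 genes were called higher and 1054 lower, and no gene was called in opposite directions. The counts of gene lists below are therefore given as deposited and with the sum rescaled. Overlap between the groups was judged on FPKM as deposited only, so a narrow gap may not hold on another scale.

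Genes of the postnatal phagocytic state had the highest median of the lists examined. Of 22 such genes, all 22 were higher in TMRM high, with a median log2 difference of 1.36 against 0.06 over all genes. With the sum rescaled 21 were still called. As deposited the groups did not overlap for 19. Gpnmb, a transmembrane glycoprotein of phagocytic and lysosome-rich macrophages, was at 80.9, 95.5 and 111 FPKM (lowest, median and highest library) in TMRM high and at 0.626, 1.14 and 3.99 in TMRM low. Its log2 difference was 5.38 ± 0.16 (SE, adjusted p = 5.4e-15, limma). The groups were far apart. Spp1, the secreted protein osteopontin, was at 1667, 2111 and 2822 FPKM in TMRM high and at 29.9, 72.7 and 140 in TMRM low, a log2 difference of 4.93 ± 0.20 (adjusted p = 7.6e-13). Igf1, a growth factor for neurons and glia, was at 85.7, 95.1 and 108 FPKM against 8.70, 12.4 and 13.7, and had the smallest p of all genes (2.90 ± 0.08, adjusted p = 2.9e-15).

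For these 3 genes no library of either group came near the range of the other. Itgax, the integrin CD11c, was at 15.8, 21.1 and 25.8 FPKM against 0.600, 1.32 and 2.70, and Clec7a, the beta-glucan receptor dectin-1, at 19, 33.7 and 40.6 against 2.84, 5.94 and 7.11. Among genes that were already abundant in TMRM low, Apoe, which carries lipid out of cells, was at 12316 to 15067 FPKM against 4328 to 8620 (1.36 ± 0.09, adjusted p = 1.2e-09). Cd9, a tetraspanin, was at 833 to 991 FPKM against 342 to 408 (1.36 ± 0.05, adjusted p = 3.7e-14). The smallest difference of the list was in Trem2, a receptor for lipids and for Apoe, whose groups overlapped at 759 to 940 and 630 to 922 FPKM (0.28 ± 0.07, adjusted p = 0.0031). Trem2 was no longer called with the sum rescaled (0.09, adjusted p = 0.32), while its signalling partner Tyrobp was (0.45, adjusted p = 9.2e-06).

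**Figure D1:**
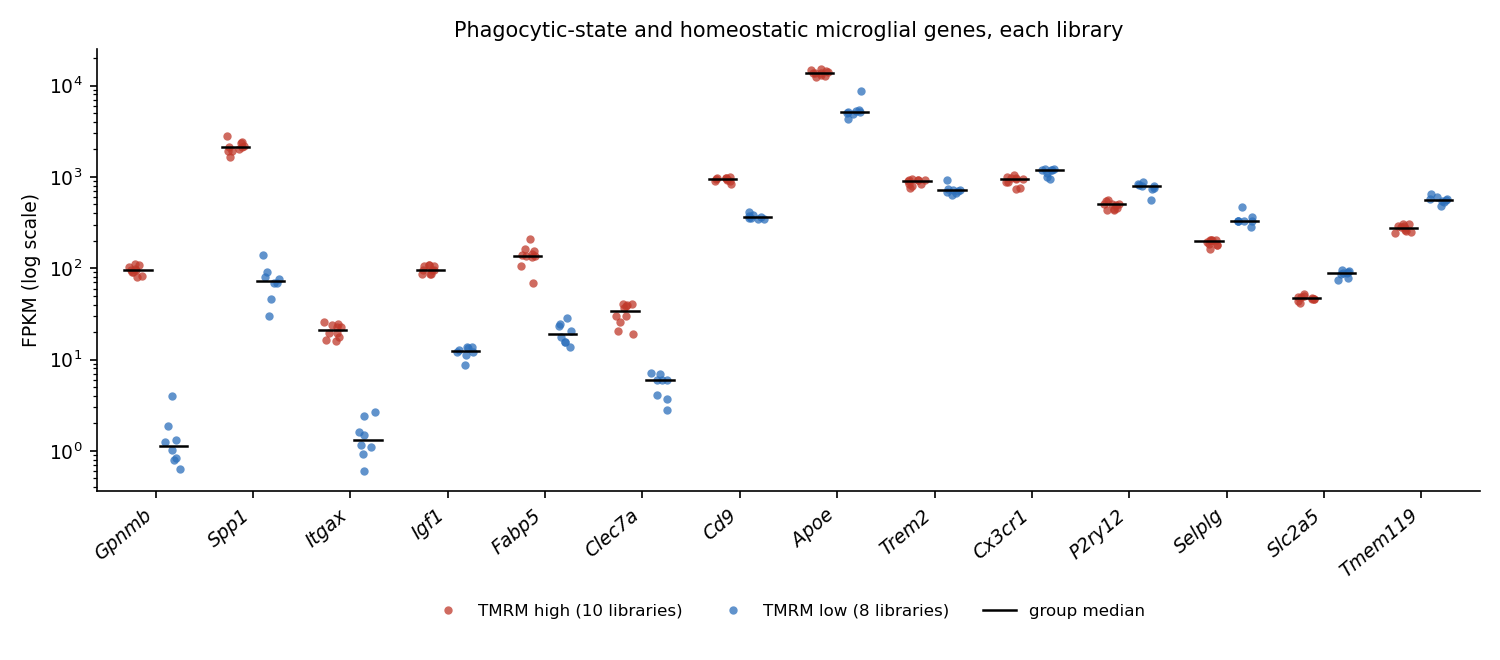
Level of 14 microglial genes in FPKM on a log axis, with 1 point for each of the 10 TMRM high and 8 TMRM low libraries and a bar at each group's median. Gpnmb, Spp1, Itgax and Igf1 form separate groups with TMRM high above, Trem2 and Cx3cr1 overlap, and Tmem119 at 245 to 306 FPKM in TMRM high lies below the 476 to 656 of TMRM low.

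Genes of the resting, homeostatic microglial state went the other way. Of 18, none was higher and 12 were lower in TMRM high (15 with the sum rescaled), with a median of -0.34. Tmem119, a membrane protein used to identify microglia, was at 245, 278 and 306 FPKM in TMRM high and at 476, 565 and 656 in TMRM low, and it had the smallest p of the lower genes (-1.03 ± 0.06, adjusted p = 2.2e-10). P2ry12, a purine receptor by which microglia sense ADP, was at 431 to 557 FPKM against 562 to 872 (-0.65 ± 0.08, adjusted p = 2.0e-06). Slc2a5, the fructose transporter, was at 41.9 to 52.0 FPKM against 74.0 to 95.0 (-0.87 ± 0.06, adjusted p = 1.1e-09). Neither P2ry12 nor Slc2a5 overlapped between the groups. Siglech, Selplg and Sparc also lay lower in every TMRM high library, with log2 differences of -0.53, -0.83 and -0.50. Cx3cr1, the fractalkine receptor, overlapped (740 to 1047 against 961 to 1225 FPKM) and fell by 0.32 on the log2 scale. Fcrls, another microglial gene, was at 1622 FPKM in TMRM high and 1562 in TMRM low on average, and was not called.

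Lysosomal genes were higher in large part. Of 40, 30 were higher and 1 lower (24 and 4 with the sum rescaled), with a median of 0.49, and for 21 all TMRM high libraries lay above all TMRM low ones. Ctsb, Ctsd and Ctsl, proteases of the lysosome, were at 2161 to 2575, 7714 to 9572 and 1368 to 1667 FPKM in TMRM high, and at 824 to 1106, 3365 to 5569 and 732 to 874 in TMRM low. Their log2 differences were 1.26, 1.12 and 0.97, each called and with no overlap. Atp6v0d2, a subunit of the proton pump found in osteoclasts and macrophages, was at 6.03, 9.32 and 15.8 FPKM against 0, 0.456 and 1.09 (2.93 ± 0.17, adjusted p = 1.1e-10). Atp6v1a, the catalytic subunit of the pump, was at 42.2 to 55.9 FPKM against 13.3 to 25.5 (1.17 ± 0.10, adjusted p = 3.1e-08). Hpse, the heparanase that cleaves heparan sulfate, was at 7.63, 25.5 and 33.5 FPKM against 1.01, 1.75 and 2.47 (3.15 ± 0.20), and TMRM high 1 held the lowest of the 10 values. The 1 lower gene was the protease gene Ctsf (153 against 182 FPKM, -0.24), and Ctss, Lgmn and Tfeb were not called.

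The 8-base letters TCACGTGA are an E-box that the transcription factor TFEB binds in lysosomal genes. They are the same on both strands and were searched in the 250 bases before each gene start (RefSeq, GRCm38.p6). Of the 40 lysosomal genes, 31 had a promoter in the table and 5 held the letters, while 0.907% of 27025 gene symbols did. The shorter core CACGTG, which lies within it, was in 10 of the 31 and in 6.86% of all symbols. The windows around the 8-base match are shown for these 5 genes, of which 4 were higher in TMRM high. That is close to the share of the whole list, where 30 of the 40 were higher. A link between the match and the change was not tested. Capitals mark the match:
Ctsa, chr2:164833734-164833772, plus strand: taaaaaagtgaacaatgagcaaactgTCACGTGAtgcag
Ctsd, chr7:142387893-142387952, minus strand: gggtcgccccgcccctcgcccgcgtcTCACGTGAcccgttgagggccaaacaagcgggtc
Atp6v1a, chr16:44139358-44139417, minus strand: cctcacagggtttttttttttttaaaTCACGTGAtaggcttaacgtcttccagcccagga
Mcoln1, chr8:3500447-3500506, plus strand: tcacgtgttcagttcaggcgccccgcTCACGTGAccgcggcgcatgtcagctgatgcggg
Gla, chrX:134601167-134601226, minus strand: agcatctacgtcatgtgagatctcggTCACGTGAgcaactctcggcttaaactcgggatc

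Ctsa, a protective carboxypeptidase, was at 466 to 549 FPKM in TMRM high and 308 to 436 in TMRM low (0.55 ± 0.06, adjusted p = 7.6e-07). Mcoln1, the calcium channel of the lysosome, was at 30.7 to 41.1 against 22.6 to 31.6 (0.36 ± 0.07, adjusted p = 0.0010) and lost its call with the sum rescaled (adjusted p = 0.13). Gla, the alpha-galactosidase, held the same letters and was at 18.6 to 25 against 16.8 to 24.8 (0.03 ± 0.08, adjusted p = 0.82, with 9 TMRM high libraries, since TMRM high 8 lists no value for it). The match is a description of these windows only, and Gla shows that genes with it were not all called.

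Genes that handle lipid were also higher. Of 15 tested, 13 were higher and none lower (12 and none with the sum rescaled), with a median of 0.97. Fabp5, a fatty acid binding protein, was at 69.6, 138 and 207 FPKM against 13.8, 19 and 28.9 (2.72 ± 0.17, adjusted p = 3.2e-10). Plin2, which coats lipid droplets, was at 281 to 313 FPKM against 98.0 to 153, and Lpl, which frees fatty acids from lipoproteins, at 124 to 165 against 54.9 to 75, with no overlap for either. Abca1, the cholesterol exporter, rose with overlapping groups (16.5 to 24.3 against 10.1 to 17.2 FPKM, 0.66 ± 0.11). Of 20 genes of cholesterol synthesis 3 were higher and none lower (1 and 4 with the sum rescaled), with a median of -0.01. Receptors and opsonins of phagocytosis were mixed, with 10 of 26 higher and 4 lower (5 and 6 with the sum rescaled). The shares of all genes were 20.4% higher and 9.84% lower, and 10.4% and 19.8% with the sum rescaled. On the rescaled sum neither of these last lists stood far from them.

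The nuclear-encoded respiratory chain was higher by a modest step. Of 36 complex I subunits, 28 were higher, of 14 in complexes II and III with cytochrome c, 12 were, and all 12 of complex IV and all 16 of ATP synthase were, with none lower. The medians were 0.51, 0.48, 0.58 and 0.52. With the sum rescaled 18, 9, 9 and 14 were called higher and none lower, and the medians were 0.33, 0.30, 0.39 and 0.33 against -0.10 over all genes. No mitochondrially encoded gene was listed in the files, so these 4 complexes are described by their nuclear subunits only. Ndufb8 of complex I was at 228, 251 and 267 FPKM in TMRM high and at 125, 147 and 184 in TMRM low (0.72 ± 0.07, adjusted p = 2.4e-07). Sdha, the catalytic subunit of complex II, was at 89.8, 98.9 and 115 FPKM against 60.3, 61.9 and 87.2 (0.60 ± 0.07, adjusted p = 3.4e-06). Neither gene overlapped between the groups. Cox6a1 of complex IV was at 375, 436 and 496 FPKM against 209, 225 and 355, and Atp5a1, the alpha subunit of ATP synthase, at 238, 249 and 288 against 163, 176 and 233. Both also kept apart as deposited, with log2 differences of 0.77 ± 0.11 for Cox6a1 and 0.46 ± 0.07 for Atp5a1. Overlap with the sum rescaled was not examined for these genes. Most subunits did overlap: the groups were apart for 4, 2, 1 and 1 members of the 4 sets.

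The shares called in these sets stand against a background that rose with level and fell with transcript length. With genes split into 10 bins by mean level, 52.7% of the bin of highest level (from 58.8 FPKM) were called higher, with a median of 0.29, against 6.25% of the lowest. With 10 bins by transcript length, 32.7% of the shortest and 9.96% of the longest were higher. The part of level in the counts of the respiratory sets was not tested. With a smooth trend of length removed from each library, chosen after seeing the data, 21 of the 36 complex I subunits and 1549 of 10045 genes with a known length were higher.

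Of 21 genes of the TCA cycle and pyruvate entry, 11 were higher and none lower (6 and none with the sum rescaled; median 0.30), and of 16 of fatty acid oxidation, 13 and none (7 and none; median 0.39). Cs, citrate synthase, was at 54.0 to 60.9 FPKM against 33.2 to 53.2 (0.49 ± 0.07), and Cpt1a, which admits fatty acids to mitochondria, at 18.6 to 26.4 against 10.4 to 15.3 (0.77 ± 0.08), neither with overlap. Mitochondrial ribosomal proteins had 27 of 48 higher and none lower, and 8 of 48 with the sum rescaled, where 10.4% of all genes were higher. The regulators and machinery of mitochondrial biogenesis, import and dynamics were divided, with 10 of 27 higher and 3 lower (6 and 3 with the sum rescaled). Their median was 0.14 as deposited and -0.03 with the sum rescaled. Timm23, a channel of the inner membrane that imports proteins, rose (64.4 to 95.4 against 37.8 to 59.5 FPKM), while Tfam, which packages mitochondrial DNA, was at 2.02 to 4.05 against 1.07 to 3.58 and was not called (0.09, adjusted p = 0.68). The lower genes were the chaperonins Hspd1 (82.7 to 121 against 96.0 to 156 FPKM, -0.29) and Hspe1 (90.2 to 200 against 152 to 306, -0.52) and the mitochondrial DNA helicase Peo1 (-0.43). Of 12 genes of mitophagy and uncoupling 8 were higher and none lower (5 and none), led by Bnip3, a receptor that tags mitochondria for removal and a target of hypoxia signalling, at 35.3, 43.6 and 53.1 FPKM against 7.14, 13.9 and 20.4 (1.58 ± 0.14, adjusted p = 6.6e-08).

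In glycolysis a block of enzymes was higher, several by about 1 on the log2 scale. Of 22 genes, 12 were higher and 1 lower (11 and 1 with the sum rescaled). For 11 all TMRM high libraries lay above all TMRM low ones, and for 1 they lay below. Tpi1, triose phosphate isomerase, was at 280, 303 and 401 FPKM in TMRM high and at 109, 119 and 197 in TMRM low (1.25 ± 0.10, adjusted p = 8.1e-09). Pkm, pyruvate kinase, was at 464, 479 and 547 FPKM against 212, 222 and 342, and Ldha, lactate dehydrogenase, at 468, 506 and 647 against 209, 221 and 316. Both rose (1.05 ± 0.08 and 1.14 ± 0.08) with no overlap. Slc16a3, which exports lactate, was at 30.6, 34.9 and 41.5 FPKM against 10.3, 12.1 and 15.4 (1.46 ± 0.08, adjusted p = 2.2e-11). Enzymes from Gpi1 and Aldoa to Pgk1 and Gapdh were higher as well. The entry steps were not: Hk2, hexokinase, was at 15.4 to 21 FPKM against 15.9 to 19.8 (-0.05 ± 0.07, adjusted p = 0.58), and Hk1, Hk3, Slc2a1 and Slc2a3 were not called. The lower gene was Slc2a5, given above. Of 10 hypoxia genes 6 were higher and none lower (4 and none), among them Hif1a at 20.6 to 28.5 FPKM against 9.52 to 17.4 (0.70 ± 0.10).

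**Figure D2:**
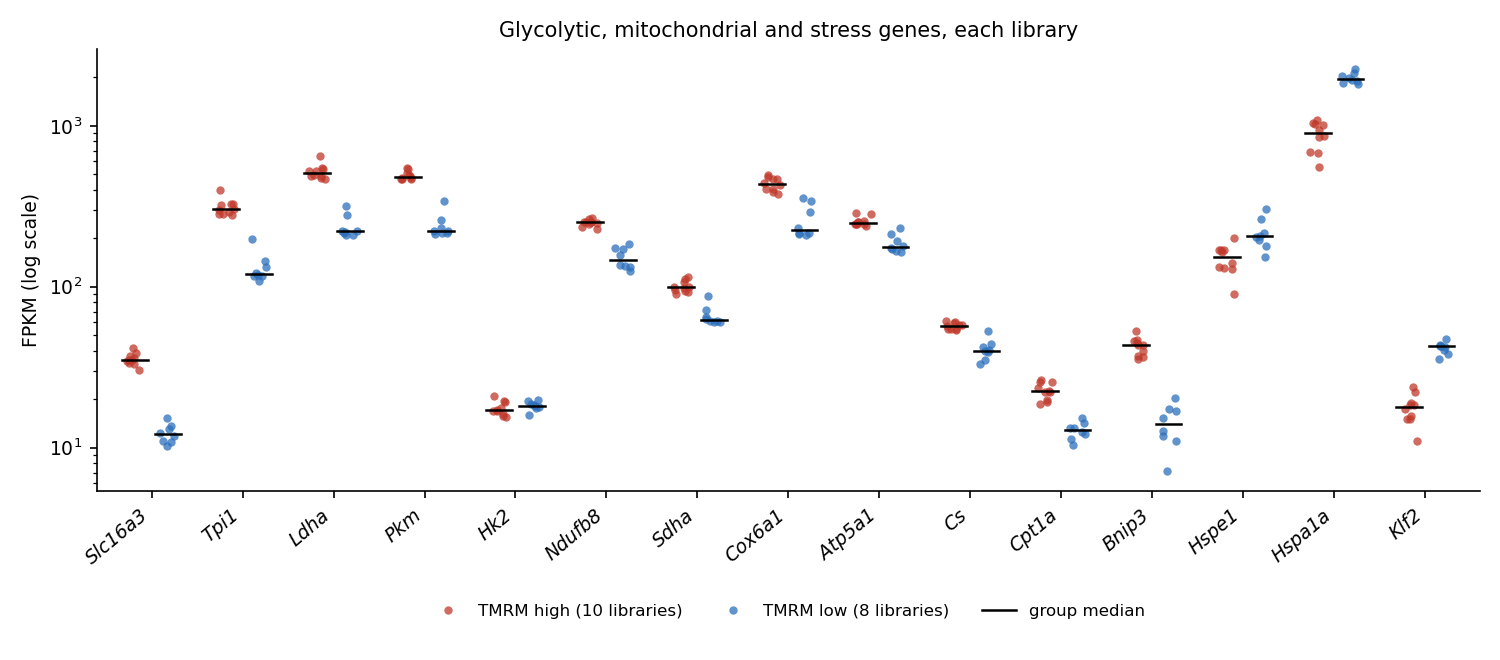
Level of 15 metabolic and stress genes in FPKM on a log axis, with 1 point per library and a bar at the group's median. Slc16a3, Tpi1, Ldha and Pkm lie well apart with TMRM high above, Hk2 overlaps, Atp5a1 at 238 to 288 against 163 to 233 FPKM is apart by a small step, and Hspa1a and Klf2 lie lower in TMRM high.

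Cell division genes were higher in TMRM high. All 32 genes of G2 and mitosis were called higher under each of the 3 scales, with a median of 0.98 and no overlap for 27. Ccnb1, cyclin B1, was at 46.1, 51.2 and 62.2 FPKM in TMRM high and at 16.9, 20.2 and 24.7 in TMRM low (1.33 ± 0.08, adjusted p = 1.1e-10). Top2a, the topoisomerase of dividing cells, was at 16.6, 21.7 and 26.6 FPKM against 5.93, 9.73 and 12.8, and Mki67 at 7.96, 10.1 and 11.9 against 3.79, 4.76 and 5.64. In bulk samples more dividing cells and more of these transcripts per cell cannot be told apart. DNA replication genes were higher by less, with 17 of 33 called and a median of 0.29, where 20.4% of all genes were higher. With the sum rescaled 5 of 33 were called, not far above the 10.4% of all genes. The counts of cytosolic ribosomal proteins moved with scale: 22 of 43 were higher as deposited, 12 with median-ratio scaling and 3 with the sum rescaled, with medians of 0.23, 0.12 and 0.04, and none was lower. The shares of all genes higher on these scales were 20.4%, 14.7% and 10.4%.

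**Figure D3:**
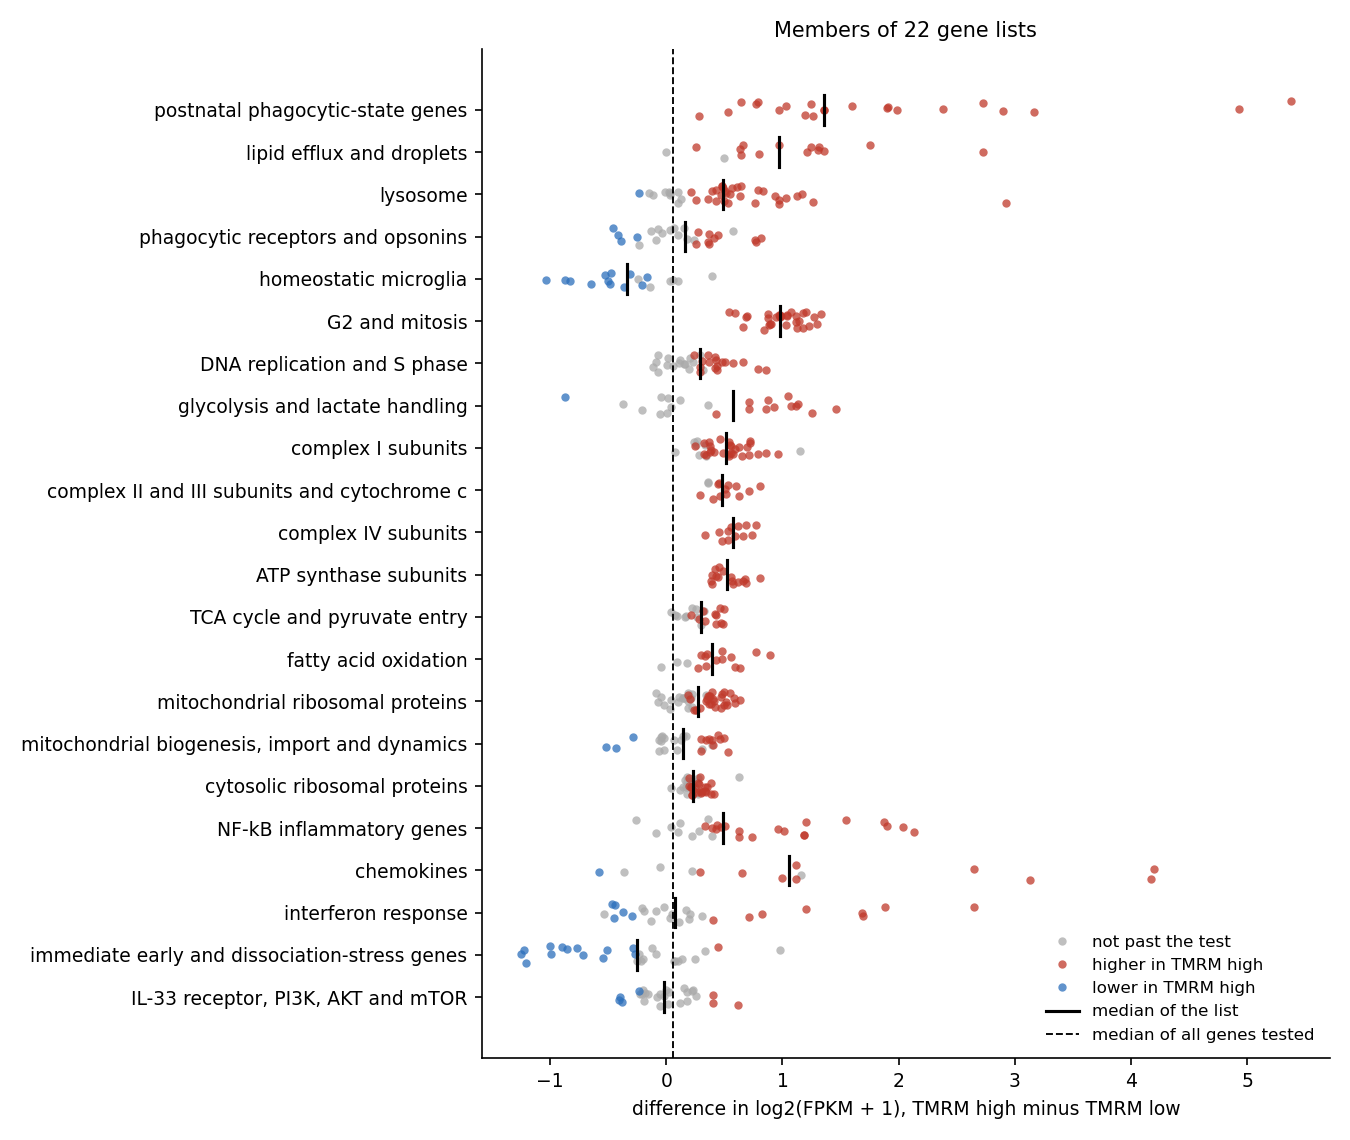
Difference in log2(FPKM + 1), TMRM high minus TMRM low, for each tested member of 22 gene lists, coloured by the limma call, with a bar at each list's median and a dashed line at the median of all genes (0.06). The phagocytic-state and G2 and mitosis lists lie wholly to the right, the respiratory complexes have medians of 0.48 to 0.58, and the medians of the homeostatic and stress lists lie to the left of 0.

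Inflammatory genes were higher, with a few of the largest differences of all. Of 28 NF-kB genes, 19 were higher and none lower (15 and 1 with the sum rescaled; median 0.49), and of 14 chemokines, 9 were higher and 1 lower (8 and 2). Cxcl2, which attracts neutrophils, was at 283, 322 and 376 FPKM in TMRM high and at 24.4, 32.8 and 56.8 in TMRM low (3.13 ± 0.13, adjusted p = 1.7e-12). Cxcl1 was at 36.4, 57.9 and 68.9 FPKM against 0.235, 2.11 and 6.53 (4.17 ± 0.29). Tnf, tumour necrosis factor, was at 325, 374 and 444 FPKM against 67.9, 92.5 and 128 (2.03 ± 0.10, adjusted p = 6.1e-12), and Il1b at 58.3, 75.9 and 81.0 against 5.27, 15.6 and 34.4 (2.13 ± 0.24). Nfkbia, which encodes the NF-kB inhibitor, was at 888 to 1171 FPKM in TMRM high and at 441 to 687 in TMRM low (0.96). None of these 5 genes overlapped between the groups. Not all chemokines were called. Ccl4 at 2647 against 2270 FPKM and Ccl2 at 242 against 254 (means) were not. Ccl3 was called by a narrow margin (0.29 ± 0.10, adjusted p = 0.028) and not with the sum rescaled (adjusted p = 0.28), and Ccl12 fell by 0.58 on the log2 scale.

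Ifnb1, interferon beta, was at 22.2, 45.6 and 57.5 FPKM in TMRM high and at 0.239, 4.23 and 12.7 in TMRM low (3.61 ± 0.39, adjusted p = 7.1e-07). Cxcl10 and Ccl5, chemokines that interferon and NF-kB both induce, were at 205 to 431 against 34.0 to 68.2 FPKM and at 25.7 to 77.3 against 0 to 4.89. Saa3, an acute-phase protein, was at 17.9, 26.6 and 52.0 FPKM against 0, 0 and 2.76 (4.18 ± 0.34). The wider interferon response was divided, with 8 of 26 higher and 5 lower (7 and 7 with the sum rescaled). Ifit1 and Isg15 rose by 1.88 and 1.68, while Irf7 and Mx1 fell by 0.47 and 0.45 on the log2 scale. Among other genes with the smallest p, the chemerin-binding receptor gene Ccrl2 (330 to 405 against 91.7 to 132 FPKM), the kinase gene Fam20c (14.4 to 27.5 against 0.392 to 2.11), the inhibitory receptor gene Lilrb4 (42.4 to 63.7 against 6.75 to 13.5), the syndecan gene Sdc4 (192 to 281 against 59.7 to 85.9), the lysosomal exonuclease gene Pld3 (246 to 328 against 98.0 to 130) and Anxa5 (149 to 178 against 31.5 to 53.8) were higher in every TMRM high library.

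Among immediate early and stress genes, heat shock genes and several transcription factors were lower in TMRM high. Of 27, 13 were lower and 1, Nr4a1, higher (17 and 1 with the sum rescaled), with a median of -0.25, and 10 did not overlap. Hspa1a, the inducible chaperone HSP70, was at 555, 901 and 1081 FPKM in TMRM high and at 1818, 1943 and 2242 in TMRM low (-1.21 ± 0.11, adjusted p = 9.0e-08). Its neighbour Hspa1b, a near copy with which reads can be shared, was at 250 to 482 against 816 to 1030. Klf2, a transcription factor of quiescence, was at 10.9, 17.8 and 23.7 FPKM against 35.8, 42.7 and 47.1 (-1.22 ± 0.11, adjusted p = 6.0e-08). Jun fell with overlap (475 to 1119 against 1013 to 1754 FPKM, -0.86 ± 0.16), and Fos was at 158 to 259 against 202 to 265 and was not called as deposited (-0.20, adjusted p = 0.11) but lower with the sum rescaled (-0.39, adjusted p = 2.1e-04). Egr1, Junb and Ier2 were not called. Atf4 and Ddit3, factors of the integrated stress response, were lower in every TMRM high library (95.9 to 129 against 157 to 172 FPKM, and 45.7 to 76.9 against 85.0 to 109). Hmox1, heme oxygenase, was at 176 to 324 FPKM against 355 to 527 and was the only one lower of 19 antioxidant genes, of which 14 were higher (10 and 1 with the sum rescaled).

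Of 11 heat shock genes, a set put together after values were seen, all 11 were lower under each of the 3 scales (median -0.77). The heat shock element, here GAANN followed directly by TTCNN and GAA, where N is any base, was searched on both strands of the same 250 bases. It was in 2 of the 9 of these genes that have a promoter in the table and in 0.514% of all symbols. Both were the chaperonin genes Hspd1 and Hspe1, which lie head to head and share the stretch, shown because it lies before both of these lower genes. It held 2 overlapping matches, and capitals mark a different one in each line:
Hspd1, chr1:55088033-55088097, minus strand: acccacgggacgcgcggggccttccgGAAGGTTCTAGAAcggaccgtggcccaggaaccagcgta
Hspe1, chr1:55088038-55088102, plus strand: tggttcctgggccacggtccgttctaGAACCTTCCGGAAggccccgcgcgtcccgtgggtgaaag

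Other genes with the smallest p among those lower were Tmem173, the DNA sensor adaptor STING (39.6 to 48.9 against 65.4 to 75.9 FPKM), Srsf7, a splicing factor (24.5 to 35.6 against 48.6 to 59.8), Hspa1l (14.5 to 24.8 against 40.5 to 52.6) and Slco4a1, an organic anion transporter (1.87 to 3.42 against 5.78 to 14.1). None overlapped between the groups.

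The IL-33 pathway, which the series studies, differed little. Il1rl1, the gene of the IL-33 receptor ST2, was at 0.975, 1.27 and 1.97 FPKM in TMRM high and at 1.04, 1.74 and 2.51 in TMRM low (-0.19 ± 0.13, adjusted p = 0.31), and its partner Il1rap at 0.611 to 3.05 against 0.715 to 2.47 (-0.05 ± 0.18, adjusted p = 0.86). Akt1 was at 14.4 to 19.1 FPKM against 10.2 to 19.5 (0.23 ± 0.09, adjusted p = 0.078) and Akt2 at 10.8 to 15.2 against 8.15 to 14.3 (0.26 ± 0.10, adjusted p = 0.060). All 4 overlapped and none was called. Il33 itself, at 0 to 0.987 FPKM over both groups, was below the level tested. Of 27 genes from the receptor to PI3K, AKT and mTOR, 3 were higher and 4 lower (1 and 7 with the sum rescaled). For all genes the shares were 20.4% and 9.84% (10.4% and 19.8%). Eif4ebp1, the translation brake that mTOR inactivates, and Rheb, the activator of mTOR, rose by 0.61 and 0.40, while Mtor, Rptor and Rictor fell by 0.23, 0.40 and 0.41. Rheb and Mtor lost their call when some single libraries were left out. Dye efflux pumps can lower the staining of a cell, and of 6 pump genes tested 1 was higher and 1 lower (none and 2 with the sum rescaled). Their log2 differences ran from -0.52 to 0.56, and the called pump genes are not named here. Abcg2 was at 15.1 to 22 FPKM against 6.78 to 21.8 (0.20 ± 0.16, adjusted p = 0.39), and Abcb1a, below the level tested, at 0.303 to 0.708 against 0.203 to 0.605.

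RNA of other cells differed between the groups, tested for 17 values per library by an exact two-sided permutation test of the 43758 regroupings, with Benjamini-Hochberg adjustment. Summed over 8 neutrophil genes, libraries held 0.301, 134 and 787 FPKM in TMRM high and 659, 1039 and 2337 in TMRM low (adjusted p = 0.0026). All 8 were tested and 7 were lower, and S100a8 and S100a9, calcium-binding proteins of neutrophils, were at 0 to 308 and 0 to 259 FPKM in TMRM high and at 181 to 1071 and 264 to 831 in TMRM low. Stfa1, Stfa2l1 and Lcn2, other granulocyte genes, were among the largest lower differences, as was Retnlg, which is 1 of the 8. Hp, another granulocyte gene, was among the lower genes with the smallest p. Of 7 monocyte genes 4 were tested and 3 were lower, and their sum was 6.07 to 24.8 FPKM against 23.2 to 61.1 (adjusted p = 0.00019). Neuronal genes were low in both groups, with sums of 2.83 to 5.64 against 11.9 to 52.8 FPKM (adjusted p = 0.00019). Meg3, a noncoding RNA of neurons, was at 0.304 against 9.85 FPKM by median, while Slc17a7 and Nrgn had a median of 0 in both. Choroid plexus sums were 30.8 to 118 against 116 to 34359 FPKM, and endothelial sums 6.15 to 11.1 against 7.40 to 150. Sums for lymphocytes, astrocytes, oligodendrocytes and their precursors, mural and erythroid cells were not called (adjusted p = 0.066 to 0.86, exact permutation test). TMRM low 2 held the most astrocyte and mural cell RNA of its group, and without it and TMRM low 7 both sums were higher in TMRM high, by 0.46 (adjusted p = 0.0028) and 2.35 (adjusted p = 0.0042) on the log2 scale (exact permutation test).

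Genes of border-associated macrophages, which line the vessels and meninges of the brain, were higher in TMRM high. As deposited their sums did not overlap, by a narrow margin (189, 232 and 294 against 110, 144 and 188 FPKM, adjusted p = 0.00019, exact permutation test). Of 10, 9 were tested, 6 were higher and none lower, among them F13a1 (7.85 to 20.5 against 1.54 to 8.44 FPKM) and Pf4 (59.8 to 116 against 18.3 to 72.0). Mrc1 and Cd163 were not called. Libraries at like marker levels are set side by side here as a description only, 1 library against 1, picked after seeing the data. Whether RNA of other cells accounts for the differences between the groups was not tested. TMRM high 10 and TMRM low 7, the latter also rich in choroid plexus RNA, had nearly equal sums of these macrophage genes (189 and 188 FPKM). Gpnmb was at 108 FPKM in the first and 1.02 in the second, Ctsb at 2229 and 913, Ldha at 522 and 219, Ccnb1 at 51.0 and 19.8, Cox6a1 at 496 and 232 and Tmem119 at 291 and 573. TMRM high 6 had more neutrophil RNA than TMRM low 3, the library with the fewest fragments (787 and 659 FPKM), and Gpnmb was at 96.4 and 1.90 there, Ctsb at 2240 and 1106, and Tmem119 at 305 and 656. For metabolic genes this pair was closer than the group medians, with Ldha at 473 and 316, Cox6a1 at 431 and 340, Ndufb8 at 251 and 184 and Atp5a1 at 246 and 212. Across the TMRM high group, TMRM high 9, with the least neutrophil RNA (0.301 FPKM), held 94.7 FPKM of Gpnmb.

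**Figure D4:**
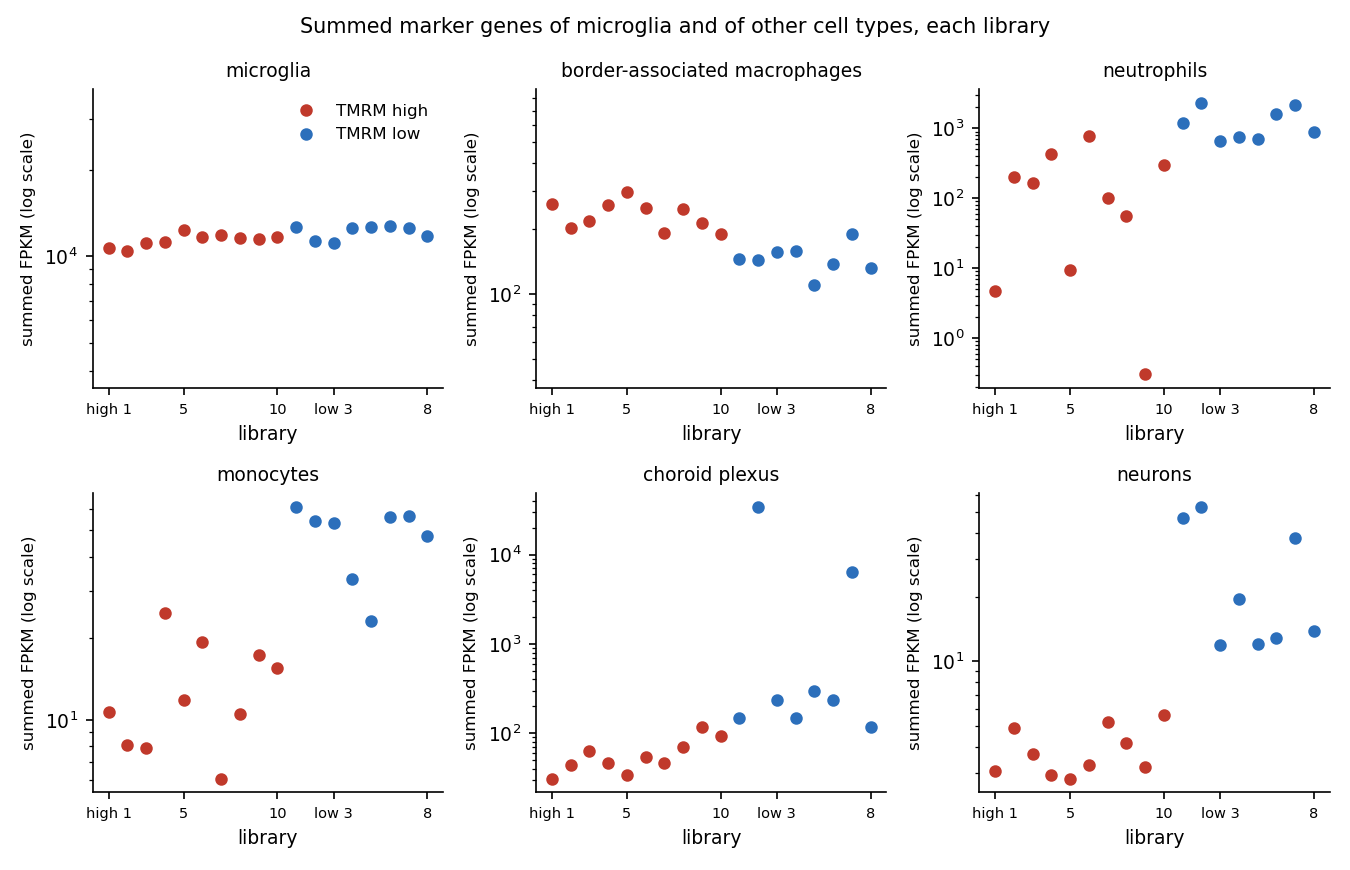
Summed FPKM, on a log axis, of marker genes of microglia and of 5 other cell types in each library, TMRM high 1 to 10 and then TMRM low 1 to 8. Microglial sums are 10426 to 12743 across libraries, border macrophage sums are higher and monocyte and neuron sums lower in TMRM high, neutrophil sums vary within TMRM high from 0.301 to 787, and TMRM low 2 and TMRM low 7 stand out in choroid plexus genes.

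With the level of S100a8 and S100a9 as a covariate, 1171 of 10714 genes were higher and 457 lower. With that of 4 border macrophage genes, Lyve1, Pf4, F13a1 and Cbr2, 894 were higher and 448 lower. Both covariates were chosen after seeing the data, from genes that themselves differed between the groups. S100a8 and S100a9 were called lower, and the 4 were among the 6 of their list called higher. The sums of all 10 border macrophage genes do not overlap between the groups, so these fits cannot separate marker level from group. Under these covariates 20 and 20 of the 22 phagocytic-state genes, 32 and 31 of the 32 mitotic genes, 11 and 12 of the 22 glycolytic genes and 25 and 24 of the 40 lysosomal genes were higher. Of the respiratory genes, 17 and 4 of 36 complex I subunits, 8 and 3 of 12 of complex IV and 12 and 2 of 16 of ATP synthase were higher. Over all 10714 genes 1171 and 894 were. With the border macrophage covariate the shares of complex I and ATP synthase were thus not far above that of all genes. Their median differences were 0.57, 0.60 and 0.60 with the neutrophil covariate and 0.26, 0.32 and 0.31 with the border macrophage covariate. They were 0.51, 0.58 and 0.52 with neither. Without TMRM low 2, TMRM low 3 and TMRM low 7, 33, 12 and 16 of these were higher, and all 22 phagocytic-state and all 32 mitotic genes.

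**Figure D5:**
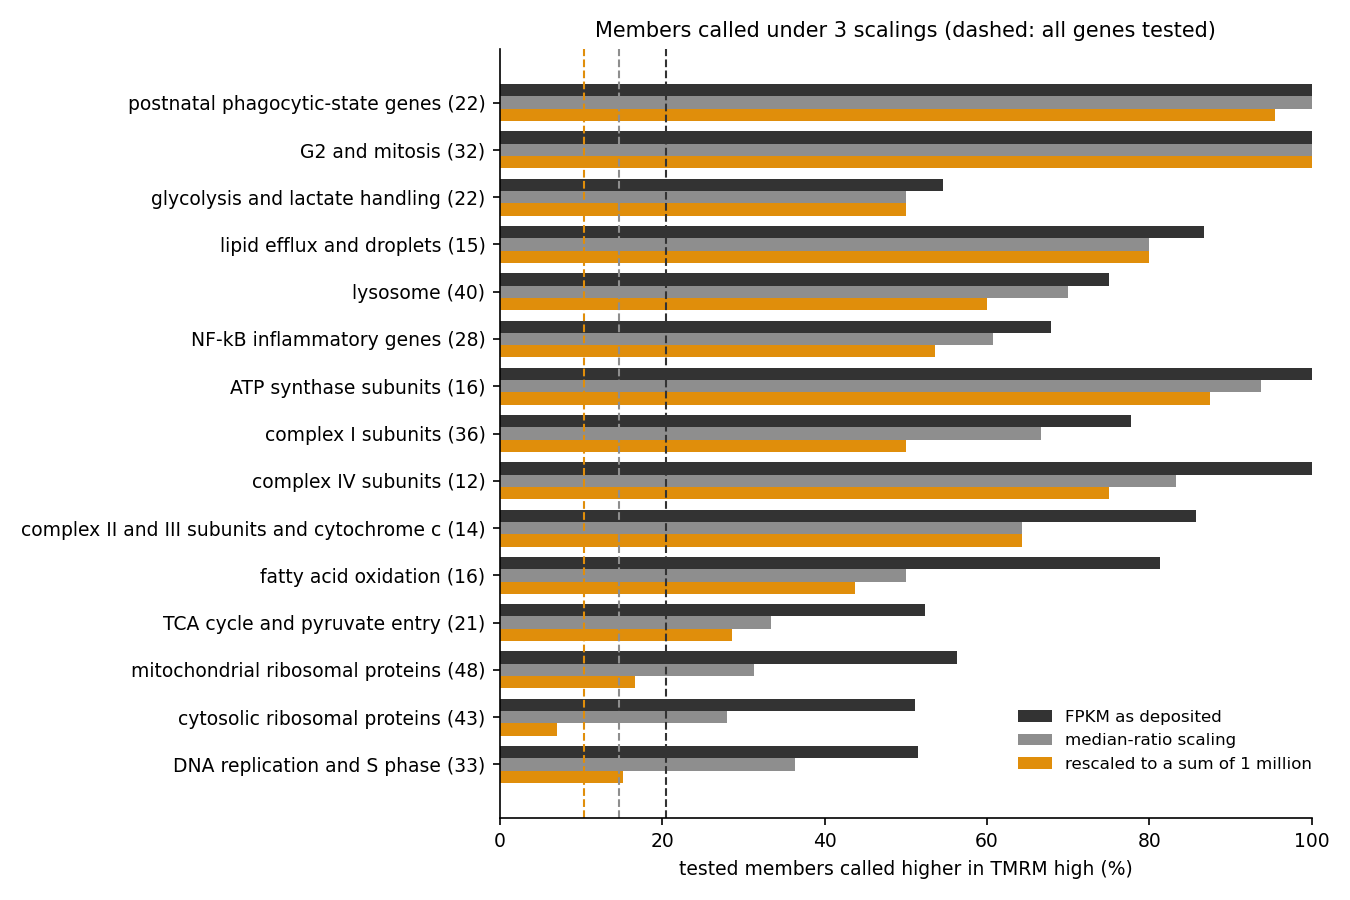
Share of tested members called higher in TMRM high, in percent, for 15 gene lists under 3 scalings of the same libraries, with dashed lines at the share of all genes on each scale (20.4%, 14.7% and 10.4%) and the number of tested members in brackets. The phagocytic-state, mitotic and glycolytic bars change little with the scaling, and those of mitochondrial ribosomal, cytosolic ribosomal and replication genes shrink to 8 of 48, 3 of 43 and 5 of 33 with the sum rescaled.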

How the data were processed

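The FPKM values of 18 libraries were used as deposited, 1 file per library in the layout of Cufflinks, per the file headers. The submitters' processing notes name TopHat2 2.0.10, Cufflinks 2.0.2, DESeq2 and mm10, with no roles. The gene annotation is not given in the sources used here. Values with the Cufflinks status FAIL (0 to 7 loci a library) were set to missing, loci of a symbol were summed, and TMRM high 8, whose file breaks off within chromosome X, has 22856 of 23356 symbols. The planned share of mitochondrially encoded genes could not be computed, since none is listed, and the share of fragments of the ribosomal RNA gene Rn45s took its place. Fragments behind a library were estimated from the deposited confidence limits. Their square-root rule gave whole numbers (within 0.01) for 54.4% to 57.8% of loci under 200 fragments.

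Groups were compared by limma 3.58.1 with an intensity trend (R 4.3.3) on log2(FPKM + 1) for genes averaging 1 FPKM or more, two-sided, with Benjamini-Hochberg adjustment over all genes. The code was tested on simulated data. Library values were compared in Python 3.11.15. The text names, of the called genes, the 15 each way with the smallest p and the 10 each way with the largest difference at a group mean of at least 5 FPKM, other than gene models without a named protein, and members of the lists. Some genes that this rule takes in are not reported here. The groups, the gene lists and the genes were chosen with earlier results of these data known. Alternatives were other pseudocounts, filters, scalings, weights, a replicate block and libraries left out.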

Additional observations from a re-analysis of the deposited data

Results flagged for a closer look

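Single libraries that stood far from the rest of their group were sought in 288 sets of values, 254 of them of genes (Dixon's test at the 95% level, on the scale of each test). It marked 31, where chance alone marks about 1 in 20. TMRM low 3, the library with the fewest fragments, accounted for 9: Apoe was at 8620 FPKM there against 4328 to 5352 in the other 7 TMRM low libraries, Atp6v1a at 13.3 against 18.8 to 25.5, P2ry12 at 562 against 738 to 872, Pkm at 342 against 212 to 261, Top2a at 5.93 against 9.17 to 12.8, Tpi1 at 197 against 109 to 144, Trem2 at 922 against 630 to 743, Clk1 at 89.8 against 140 to 199.99 and Hif1a at 9.52 against 14.5 to 17.4. In TMRM high 1, Ccrl2 was at 405 FPKM against 330 to 359, Hpse at 7.63 against 19 to 33.5, Ldha at 647 against 468 to 543, Tpi1 at 401 against 280 to 329 and Clk4 at 31.6 against 24 to 27.6. In TMRM high 2, Cd9 was at 833 against 908 to 991, Ctsl at 1368 against 1508 to 1667 and Gapdh at 951 against 1127 to 1276.

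The other marked gene values were Pgk1 in TMRM low 2 (109.2 FPKM against 61.9 to 80.9), Rictor in TMRM high 6 (0.546 against 0.797 to 1.03), Ccrl2 in TMRM low 1 (132 FPKM against 91.7 to 109), Ifnb1 in TMRM high 3 (22.2 against 37.4 to 57.5), Igf1 in TMRM low 4 (8.70 against 11.3 to 13.7), Pf4 in TMRM low 5 (18.3 against 38.0 to 72.0), Abcb1a in TMRM low 5 (0.605 against 0.203 to 0.346) and Retnlg in TMRM low 5, listed at 0 against 33.1 to 82.6. Il33 was at 0.340 FPKM in TMRM high 6 and at 0.987 in TMRM low 2, where the other libraries of those groups were at most 0.0916 and 0. In sums of marker genes, TMRM low 2 held 12.5 FPKM of astrocyte genes (4.31 to 6.99 in the others) and 79.2 of mural cell genes (1.09 to 4.42), TMRM high 6 held 2.56 FPKM of oligodendrocyte precursor genes (0.111 to 0.912), and TMRM high 3 held 494.5 FPKM of erythroid genes (0 to 1.74).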

How the results depend on the processing

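Of 116 called genes run one by one, all that could be tested kept their direction under each of the other settings except Pf4, whose log2 difference turned to -0.0685 with border macrophage genes, of which it is one, as a covariate. Leaving out any 1 library gave 1996 to 2356 higher and 934 to 1224 lower genes, and of the 116 genes Ccl3, Clk3, Mtor and Rheb lost their call in at least 1 of the 18 fits. Ccl3 did so without TMRM high 4 or 10 or TMRM low 8, Clk3 without TMRM high 3, 4, 5, 6, 7 or 9 or TMRM low 3, 4, 5 or 8, Mtor without TMRM high 3, 7 or 9 or TMRM low 3, 4, 5 or 7, and Rheb without TMRM high 4, 8 or 9 or TMRM low 4 or 6. Ccl3, Mcoln1 and Trem2 also lost theirs with the sum rescaled or the length trend removed, Rheb with the sum rescaled, and Ccl3, Clk3, Ctsf, Hspd1, Mtor, Rheb and Trem2 with a replicate block. With the neutrophil and border macrophage covariates 18 and 21 of the 116 lost theirs, Cx3cr1, Hspd1, Trem2, Irf7, Mx1, Mtor, Rptor, Clk1 and Clk3 among them under both. With the sum rescaled 1113 genes were higher and 2124 lower, with median-ratio scaling 1632 were lower, and with a mean of at least 5 FPKM 688 were lower, where fewer genes were tested. With the neutrophil covariate 1171 were higher and 457 lower, and with the border macrophage covariate 894 and 448; the cause of these moves was not tested. Replicate numbers 1 to 8 occur in both groups, and the labels do not say whether they pair the libraries. Deviations of same-numbered libraries from their group means correlated by -0.18 to 0.12. This cannot decide the pairing, since depth and RNA of other cells also vary between libraries. With a replicate block 1512 genes were higher and 795 lower.

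Without TMRM low 2 and TMRM low 7, chosen after seeing the data, the difference in symbols above 1 FPKM was -58.1 (adjusted p = 0.23), in the Rn45s share -2.31 percentage points (adjusted p = 0.15) and in endothelial genes -0.34 (log2, adjusted p = 0.053), each no longer called, while astrocyte genes (0.46) and mural cell genes (2.35) became higher in TMRM high. Without TMRM low 3 as well the differences were -56.6 for symbols (not called), 0.48 for astrocyte and 2.33 for mural cell genes (called), and the Rn45s share (-3.22, adjusted p = 0.034) and endothelial genes (-0.39, adjusted p = 0.034) were called again (exact permutation tests). Depth limits genes near 1 FPKM most, and TMRM low 3 with 1240330 fragments.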

Other observations

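All 4 CLK kinases, which phosphorylate SR splicing factors, were lower under each of the 3 scales, with log2 differences of -0.72 for Clk4, -0.46 for Clk1, -0.34 for Clk2 and -0.26 for Clk3. Clk3 lost its call when some single libraries were left out, and Clk1 without TMRM low 2 and TMRM low 7. With the border macrophage covariate Clk1, Clk2 and Clk3 lost theirs, and with the neutrophil covariate Clk1 and Clk3. Only Clk4 kept its call in every setting. Clk4 was at 26.4 ± 2.3 FPKM (SD, n = 10) against 44.1 ± 4.2 (n = 8) and did not overlap. Of 10 SR factors tested, 3 were lower and none higher as deposited, and 7 were lower with the sum rescaled. Of 39 proteasome subunits 26 were higher and 1 lower (12 and 1 with the sum rescaled), of 64 histone genes 22 and 1 (14 and 3), of 19 proton pump genes 16 and 2 (12 and 2), and of 9 genes of the actin-nucleating Arp2/3 complex 6 and none (4 and none). These families were chosen after the values were seen. Over all genes 20.4% were higher and 9.84% lower (10.4% and 19.8% with the sum rescaled). Among genes of the highest level, from 58.8 FPKM, 52.7% were higher as deposited. Many proteasome, proton pump and Arp2/3 genes were of that level, and the part of level in these counts was not tested. The proton pump count includes the pseudogene Atp6v0c-ps2, which rose by 1.09, while Atp6v0c did not (-0.01, adjusted p = 0.97, limma). Several Hist1h2a genes rose almost equally (Hist1h2ah 0.83, Hist1h2ab 0.82, Hist1h2ad 0.80). Near copies can share reads, so such members may not be independent.

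C2, a complement component, was at 11.4, 13 and 20.9 FPKM in TMRM high and at 0.795, 2.19 and 3.96 in TMRM low (2.24 ± 0.17), while the abundant C1qa and C1qb were not called. Psat1 of serine synthesis was at 113 to 159 FPKM against 43.0 to 66.5 (1.35 ± 0.09), in the same libraries in which Atf4 was lower. It does not stand for its list. Of 15 tested genes of serine synthesis and ATF4 targets, 6 were higher and 6 lower (3 and 6 with the sum rescaled), and 1.35 was the highest difference. Cd14, the co-receptor for endotoxin, was at 221 to 252 FPKM against 71.3 to 141 (1.17 ± 0.09). Neither Psat1 nor Cd14 overlapped between the groups.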
